A study of Mus musculus with 13 samples.

Results

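The genes described here encode the oxidative phosphorylation machinery of mouse retinal cells, with subunits from both the nuclear and the mitochondrial genome. Members were the protein-coding genes in the authors' deposited comparison table whose names start with Nduf, Uqcr, Atp5, Sdha to Sdhd or Cox4 to Cox8, together with the protein-coding genes of chromosome MT. The table held 35734 genes, of which 113 met the name or chromosome rule, and 107 of these also had at least 80 reads summed over the 8 RNA-seq libraries. The 107 comprised 94 nuclear and 13 mitochondrial genes, and all 107 passed the filter on low counts used for the test. The 6 genes under the read minimum were Cox7a1, Cox7b2, Cox8b, Cox8c, Cox5b-ps and a second gene named Atp5o. Cox7a1, the nearest below the minimum, had 53.5 estimated reads in all, and Cox6a2, the nearest above it, had 296.

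Oxidative phosphorylation passes electrons from NADH and succinate along the inner mitochondrial membrane to oxygen and uses the resulting proton gradient to make ATP. NADH dehydrogenase (complex I), succinate dehydrogenase (complex II), the cytochrome bc1 complex (complex III) and cytochrome c oxidase (complex IV) carry the electrons, and ATP synthase (complex V) makes the ATP. Most subunits are encoded in the nucleus and imported, while the mitochondrial DNA encodes a few core subunits of complexes I, III, IV and V and none of complex II. The retina is known for a high energy demand and for marked aerobic glycolysis, above all in mature photoreceptors.

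The libraries came from CD1 mouse retinas of postnatal day 0, which were dissociated, transfected and, after 9 h in culture, sorted by their GFP. The Control group (n = 4) was the GFP condition, with 400000 cells per replicate, and the Ikzf1 group (n = 4), with 300000 cells per replicate, received Ikzf1, which encodes the zinc finger transcription factor Ikaros. Ribosomal RNA was depleted with a capture kit, and the plasmid and promoter of the RNA-seq arm were not given in the sources used here. The libraries held 21.4 to 30.5 M estimated read pairs, and Ikzf1 itself took 15.9 to 17.2% of the reads of each Ikzf1 library but at most 0.0091% of those of a control. CPM below are estimated counts over library sizes scaled by TMM, which sets the libraries level over the bulk of genes, and TPM are the deposited length-corrected values. Summed progenitor markers stood at 2074 to 2194 CPM in the controls and 1942 to 1990 CPM in the Ikzf1 libraries, with 3 of 12 called higher and 6 lower, where 29.3% of all genes tested were called higher and 29.8% lower. Summed photoreceptor markers were at 793 to 916 CPM in the controls and 460 to 524 CPM after Ikzf1, with 0 of 8 called higher and 7 lower. Summed ganglion cell markers were at 268 to 276 and 164 to 180 CPM, although 4 of 6 tested genes were called higher and 2 lower. Summed endothelium and pericyte markers were at 402 to 472 and 206 to 246 CPM, with 1 of 4 tested genes called lower, a share below that of all genes. The ganglion cell and endothelium sums fell although most of their tested genes were not called lower, so neither sum stands for its list as a whole. The part of cell composition in the differences below was not tested, and in bulk RNA fewer cells of a type and less RNA per cell cannot be told apart.

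The nuclear genes were tested first for changes after Ikzf1 transfection, with the edgeR quasi-likelihood test over all genes. Of the 94 nuclear members, 34 (36.2%) passed the test at an edgeR adjusted p of 0.05, 29 of them higher and 5 lower after Ikzf1. Over all 15637 genes tested the share was 59.1%, with 29.3% higher and 29.8% lower. Among the 13 mitochondrial members 1 gene passed, mt-Nd6, which was higher. At an adjusted p of 0.05 and a change of at least 0.3 on the log2 scale, 5 nuclear members and 1 mitochondrial member passed, against 40.8% of all genes. Changes were small for most members. The absolute log2 fold change was under 0.3 for 89 of the 94 nuclear members (94.7%) and for 12 of the 13 mitochondrial members, and for 51.8% of all tested genes. The median standard error was 0.06 for nuclear members, 0.05 for mitochondrial members and 0.08 for all tested genes. The median control level of the nuclear members was 54.0 CPM and that of all tested genes 22.9 CPM. The median log2 fold change was 0.06 for nuclear members, -0.03 for mitochondrial members and 0.00 for all tested genes.

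These directions depend on the scaling. With library totals that include the Ikzf1 reads and no TMM, the median of all genes moved to -0.21, 3 nuclear members were called higher and 50 lower, and 1 mitochondrial member was called higher and 7 lower. With library totals without the Ikzf1 reads and no TMM the median of all genes was 0.06, and 44 nuclear members were called higher and 3 lower. The share of all genes called is given here for the TMM scale alone, so the counts under the other scalings have no background. Relative to that of all genes, the nuclear median lay at 0.06 and the mitochondrial median at -0.03 under each of these 3 scalings. A scaling moves all genes by nearly the same amount, so this likeness was fixed in advance and is no support. With 1 library left out the mitochondrial difference varied, at 0.04 without control replicate 1 and -0.06 without control replicate 4. Changes are given relative to the bulk of genes. The authors' deposited table, made with DESeq2, called 20 nuclear members higher and 5 lower and 1 mitochondrial member, with 41.8% of its genes called. Its means were matched here with average transcript lengths, which the main test did not use. The part of length correction in the unlike counts was not tested. All 26 members called in the authors' table were also called here with the same direction.

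**Figure D1:**
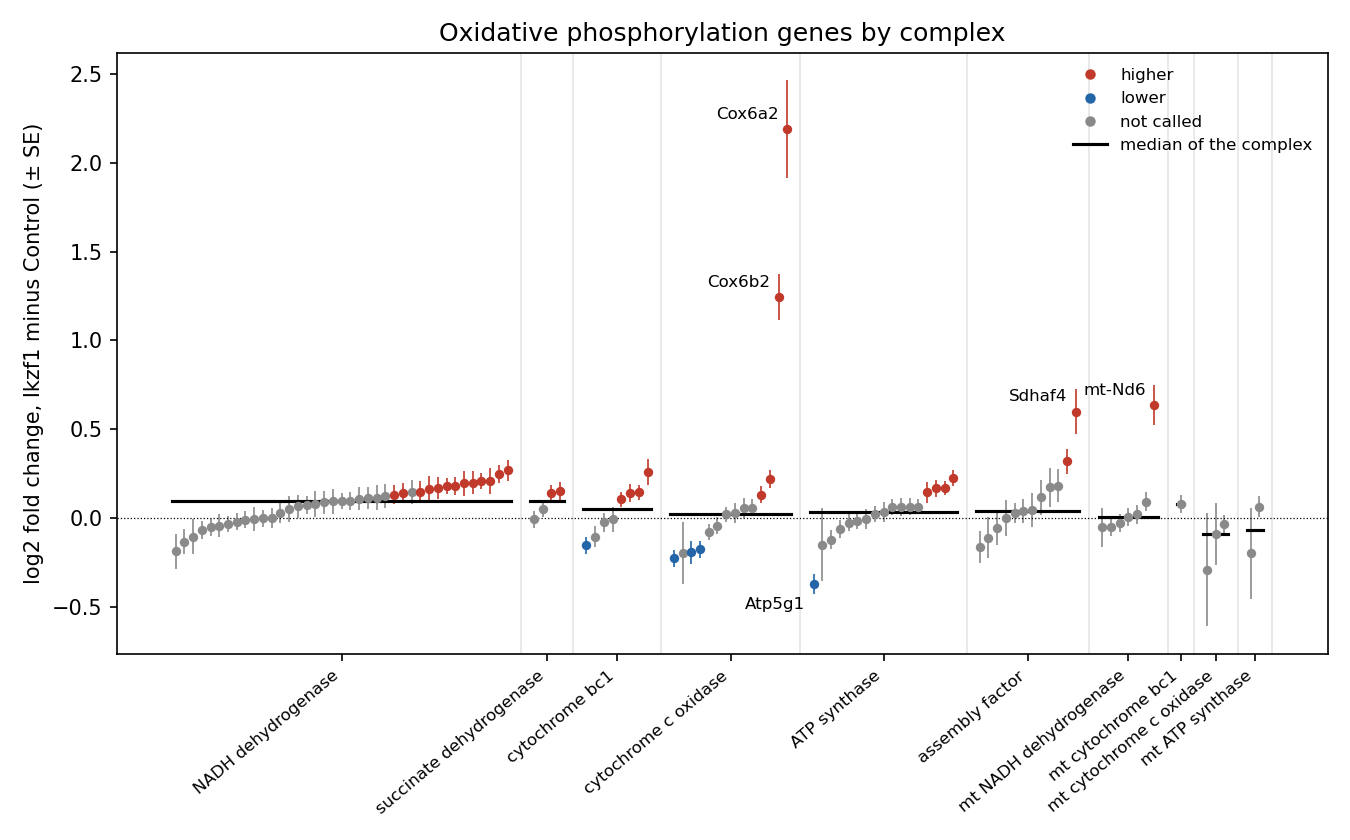
Each point is the log2 fold change of 1 gene, Ikzf1 minus Control, with its standard error, grouped on the horizontal axis by complex and, from the label mt onward, by mitochondrial genes, with a black line at the median of each group and colour for the edgeR call (TMM scale). Cox6a2 and Cox6b2 stand at 2.19 and 1.24, while most points lie within 0.3 of 0 on this scale. With library totals that include the Ikzf1 reads the points move down by about 0.21, and most small rises become falls.

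NADH dehydrogenase, the entry point for electrons from NADH, had 39 nuclear members, of which 13 rose and 0 fell on the TMM scale, whereas library totals including the Ikzf1 reads gave 0 higher and 16 lower. The median log2 fold change was 0.10, and the 13 calls ranged from 0.13 to 0.27. These calls made up 33.3% of the 39 genes, where 59.1% of all tested genes were called and 29.3% were called higher. Ndufb10, an accessory subunit of the membrane arm (ENSMUSG00000040048, GRCm38 chromosome 17, 24722060 to 24724478), stood at 32.8, 32.3, 30.8 and 29.7 CPM in the controls against 38.3, 37.8, 37.9 and 37.6 CPM in the Ikzf1 libraries. All 4 Ikzf1 libraries lay above all controls, and the log2 fold change was 0.27 ± 0.06 (SE, edgeR adjusted p 0.000201). Ndufb11, another accessory subunit of the membrane arm, went from 54.7 ± 2.42 to 65.1 ± 2.76 CPM (SD, n = 4), a log2 fold change of 0.25 ± 0.05 (SE, edgeR adjusted p 0.000124). It overlaps Rbm10 on the opposite strand, and since strand use in counting was not stated, reads of the 2 genes may not be separated. Ndufa9, an accessory subunit, rose by 0.21 and Ndufv2, an iron-sulphur core subunit of the NADH-binding module, by 0.18 on the log2 scale. The groups did not overlap for 9 of the 39 genes, against 53.1% of all tested genes. The highest level among members named for this complex was that of Ndufa4, at 418 TPM in the controls. Its product has since been assigned to cytochrome c oxidase. Ndufa4 itself, at 0.10 ± 0.04 (SE), did not pass (edgeR adjusted p 0.060) but was called without control replicate 1 (adjusted p 0.0387). Its paralog Ndufa4l2, known as a target of hypoxia signalling, had the smallest p among members of negative sign, at -0.19 ± 0.10 (SE, edgeR adjusted p 0.103). Without control replicate 4 it was called, at -0.26 (adjusted p 0.0275).

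Succinate dehydrogenase, which is also an enzyme of the tricarboxylic acid cycle, has only nuclear subunits. Of its 4 genes, Sdha and Sdhd rose on the TMM scale, while under library totals with the Ikzf1 reads 0 rose and 2 fell. On the TMM scale 50% of the genes were called and 50% had groups without overlap, against 59.1% and 53.1% of all tested genes. Sdha, the flavoprotein that binds succinate, stood at 140, 134, 123 and 133 CPM in the controls against 151, 145, 145 and 145 CPM in the Ikzf1 libraries. The groups did not overlap, and the log2 fold change was 0.14 ± 0.04 (SE, edgeR adjusted p 0.0069). Sdhd, a membrane anchor, had 0.16 ± 0.05 (SE). The iron-sulphur subunit Sdhb had -0.01 and the other anchor Sdhc, the highest of the 4 at 275 TPM, had 0.05, each with a standard error of 0.05, and neither passed the test.

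The cytochrome bc1 complex had 8 nuclear members. Uqcr10, Uqcrc2, Uqcrfs1 and Uqcrc1 rose on the TMM scale and Uqcrb fell, and library totals with the Ikzf1 reads gave 0 higher and 5 lower. The share called on the TMM scale was 62.5%, near the 59.1% of all tested genes. Groups were without overlap for 50% of the 8, against 53.1% of all tested genes. Uqcr10, a small subunit, stood at 23.7, 22.0, 20.5 and 22.5 CPM in the controls against 29.5, 26.8, 26.2 and 24.2 CPM in the Ikzf1 libraries, with the nearest values of the groups close together. Its log2 fold change was 0.26 ± 0.07 (SE, edgeR adjusted p 0.00274). Uqcrb, which binds ubiquinone and had the highest level of the complex at 346 TPM, went from 65.6 to 71.4 CPM down to 60.1 to 63.4 CPM, again with no overlap. This was a log2 fold change of -0.15 ± 0.05 (SE, edgeR adjusted p 0.00813). The core proteins Uqcrc1 and Uqcrc2 had 0.11 and 0.15, and the Rieske iron-sulphur protein Uqcrfs1 had 0.14. Uqcrc1 lost its call without control replicate 2 or 3 or without Ikzf1 replicate 2 or 4, with adjusted p of 0.0659, 0.194, 0.0802 and 0.0735. Uqcrfs1 lost it without control replicate 3 (0.0703) or Ikzf1 replicate 1 (0.0579). Uqcrh, the hinge protein, had -0.02 ± 0.05 (SE).

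Cytochrome c oxidase, which reduces oxygen, held the largest changes of all members and calls in both directions. Of its 14 nuclear members Cox6a2, Cox6b2, Cox7c and Cox6c rose and Cox7a2l, Cox8a and Cox5a fell on the TMM scale, and library totals with the Ikzf1 reads left 2 higher and made 10 lower. Genes called on the TMM scale and genes without overlap each made up 50% of the 14, against 59.1% and 53.1% of all tested genes. Cox6a2, the isoform of subunit 6a known from heart and skeletal muscle (ENSMUSG00000030785, chromosome 7, 128205435 to 128206387), stood at 0.673, 0.436, 0.435 and 0.554 CPM in the controls against 1.99, 2.85, 2.23 and 2.58 CPM in the Ikzf1 libraries. Every Ikzf1 library lay above every control, and the log2 fold change was 2.19 ± 0.27 (SE, edgeR adjusted p 8.36e-08). The values rest on 10 to 73 reads per library, and the gene overlaps Itgad on the opposite strand. The authors' deposited table gave 1.84 for the same gene. Cox6b2, the isoform of subunit 6b known from testis (ENSMUSG00000051811, chromosome 7, 4751792 to 4753094), stood at 4.08, 3.31, 3.59 and 3.88 CPM in the controls against 8.46, 10.3, 7.37 and 9.14 CPM in the Ikzf1 libraries, again without overlap. Its log2 fold change was 1.24 ± 0.13 (SE, edgeR adjusted p 3.35e-09).

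The widely expressed partners of these isoforms did not pass the test. Cox6a1 stood at 66.9 ± 4.92 CPM in the controls and 68.3 ± 3.43 CPM after Ikzf1 (SD, n = 4), with a log2 fold change of 0.03 and a standard error of 0.05. Cox6b1 stood at 79.0 ± 2.36 and 74.9 ± 0.935 CPM, with -0.08 and a standard error of 0.05 (edgeR adjusted p 0.140). Though not called, it lay at 73.5 to 75.7 CPM in the Ikzf1 libraries, below every control (76.2 to 81.7 CPM). Set against their partners per length, the isoforms stayed minor: Cox6a2 made up 0.510 to 0.719% of the summed Cox6a TPM in the controls and 2.39 to 3.09% in the Ikzf1 libraries. Cox6b2 made up 4.14 to 5.43% of the summed Cox6b TPM in the controls and 9.18 to 13.1% in the Ikzf1 libraries.

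**Figure D2:**
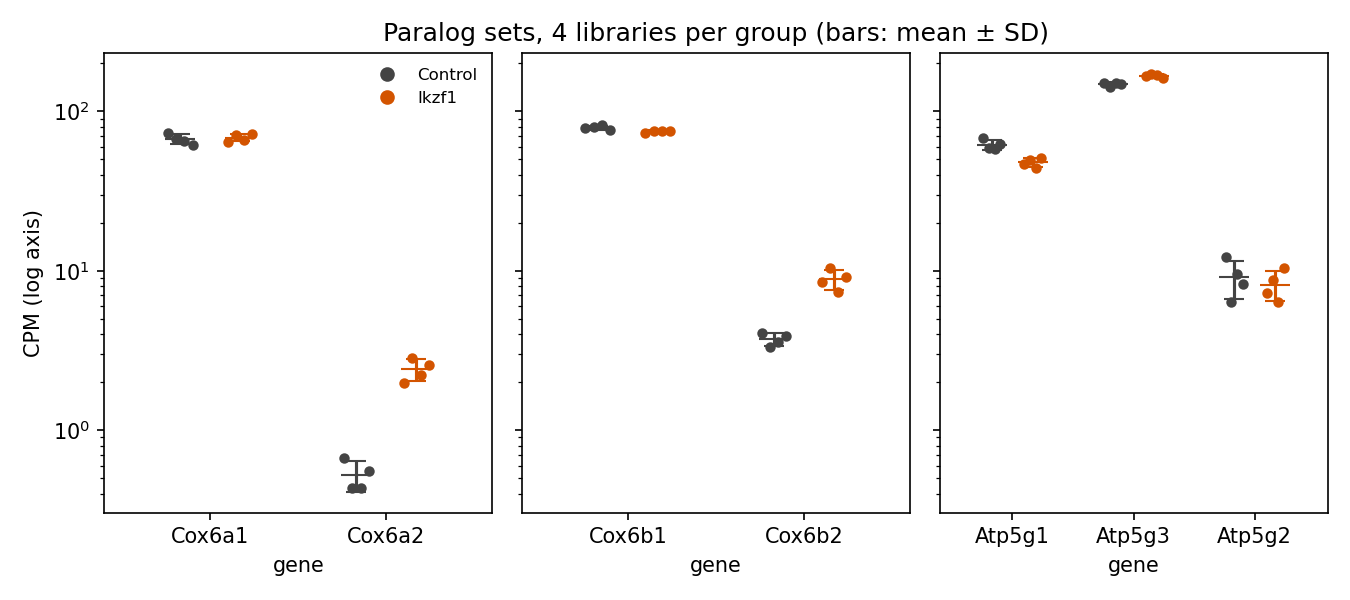
CPM of each library on a log axis for the paralog sets Cox6a1 and Cox6a2, Cox6b1 and Cox6b2, and Atp5g1, Atp5g3 and Atp5g2, with points for the 4 Control and 4 Ikzf1 libraries and bars for mean ± SD. On the TMM scale Cox6a2 rises from at most 0.673 to at least 1.99 CPM. Cox6b2 rises from at most 4.08 to at least 7.37 CPM. Cox6a1 lies between 61.8 and 73.5 CPM over both groups. Cox6b1 lies between 76.2 and 81.7 CPM in the controls and between 73.5 and 75.7 CPM in the Ikzf1 libraries.

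Among the other subunits of complex IV, Cox7a2l, known as a factor in joining respiratory complexes into supercomplexes, went from 82.3, 83.6, 78.2 and 80.8 CPM down to 66.5, 69.1, 73.6 and 68.9 CPM. Every Ikzf1 library was below every control, and the log2 fold change was -0.22 ± 0.05 (SE, edgeR adjusted p 0.000179). Its paralog Cox7a2 had 0.06 ± 0.05 (SE). Cox5a, a nuclear subunit next to the catalytic core, had -0.17, Cox7c 0.22 and Cox6c 0.13. Cox8a had -0.19, and its call was lost without control replicate 1 (adjusted p 0.0609) or Ikzf1 replicate 4 (0.0511). The call of Cox6c was lost without control replicate 2 or 4 or Ikzf1 replicate 3, with adjusted p of 0.0686, 0.0505 and 0.0868. Cox4i1, the entry subunit of assembly and the highest nuclear member of the complex at 504 TPM, had 0.02 ± 0.05 (SE), and its paralog Cox4i2 (13.2 TPM), known from lung and hypoxia, had -0.19 ± 0.18 (SE).

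ATP synthase had 17 nuclear members, of which Atp5c1, Atp5g3, Atp5j and Atp5k rose and Atp5g1 fell on the TMM scale, whereas library totals with the Ikzf1 reads gave 0 higher and 12 lower. Genes called on the TMM scale and genes without overlap each made up 29.4% of the 17, against 59.1% and 53.1% of all tested genes. Atp5g1, Atp5g2 and Atp5g3 encode the same mature c subunit, the ring that turns with proton flow, behind different import sequences. Atp5g1 (ENSMUSG00000006057, chromosome 11, 96068852 to 96075670) stood at 67.5, 58.7, 58.1 and 62.7 CPM in the controls against 46.4, 49.6, 44.1 and 51.1 CPM in the Ikzf1 libraries. The groups did not overlap, and the log2 fold change was -0.37 ± 0.06 (SE, edgeR adjusted p 3.65e-06). Atp5g3 (ENSMUSG00000018770, chromosome 2, 73908447 to 73911326) went the other way, from 150, 143, 151 and 149 CPM to 167, 171, 169 and 161 CPM, a log2 fold change of 0.17 ± 0.04 (SE, edgeR adjusted p 0.000826). Under library totals with the Ikzf1 reads Atp5g3 had -0.04 and was not called. Atp5g2 had -0.15 ± 0.21 (SE), from 147 to 309 reads per library. Within the summed TPM of the 3 genes, Atp5g1 held 29.3 ± 1.53% in the controls and 22.6 ± 1.31% after Ikzf1, and Atp5g3 held 66.5 ± 2.01% and 73.6 ± 2.08% (SD, n = 4), without overlap for either gene. These shares do not depend on the scaling of libraries. Atp5c1, the gamma subunit of the central stalk, had a log2 fold change of 0.23 ± 0.05 (SE, edgeR adjusted p 9.31e-05), and Atp5j and Atp5k had 0.17 and 0.15. Atp5j overlaps Gabpa on the opposite strand. The call of Atp5k was lost without control replicate 2 or 4 or Ikzf1 replicate 1 or 3, with adjusted p of 0.129, 0.069, 0.0842 and 0.0716. Atp5b, the catalytic beta subunit and the highest nuclear member of all at 1221 TPM, had -0.02 ± 0.04 (SE).

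The promoters of the paralogs with unlike changes are shown because members of 1 set differ there. They are the 250 bases before the start in the RefSeq promoter table (GRCm38.p6), 5′ to 3′ on the strand of the gene, with capitals for matches to 5 short motifs on either strand: TGCGCA (core of NRF1), CCGGAAG (ETS factors such as GABP), AAGGTCA (oestrogen-related receptors), AAGATGG (core of YY1) and TGGGAA (core of Ikaros). TGGGAA and the ETS motif share GGAA, but their other letters keep the same GGAA from counting under both. The table held 82 windows for 77 of the 94 nuclear members, and it held no entry for Cox6a2.
Cox6b1, chr7:30626115-30626364, minus strand: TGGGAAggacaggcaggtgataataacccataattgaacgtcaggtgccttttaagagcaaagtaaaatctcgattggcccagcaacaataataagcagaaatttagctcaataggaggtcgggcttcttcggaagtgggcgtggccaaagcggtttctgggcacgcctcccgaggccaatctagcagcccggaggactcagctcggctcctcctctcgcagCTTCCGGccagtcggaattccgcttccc
Cox6b2, chr7:4753095-4753344, minus strand: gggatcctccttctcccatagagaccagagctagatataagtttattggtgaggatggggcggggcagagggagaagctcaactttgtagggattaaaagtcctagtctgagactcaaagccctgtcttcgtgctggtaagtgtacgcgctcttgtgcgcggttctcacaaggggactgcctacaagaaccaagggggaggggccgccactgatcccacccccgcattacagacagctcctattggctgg
Atp5g1, chr11:96075632-96075881, minus strand: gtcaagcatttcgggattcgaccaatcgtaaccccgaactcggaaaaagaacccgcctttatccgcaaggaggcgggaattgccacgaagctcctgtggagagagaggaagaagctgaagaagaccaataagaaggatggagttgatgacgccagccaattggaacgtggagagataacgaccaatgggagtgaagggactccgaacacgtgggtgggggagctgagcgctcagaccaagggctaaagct
Atp5g3, chr2:73911327-73911576, minus strand: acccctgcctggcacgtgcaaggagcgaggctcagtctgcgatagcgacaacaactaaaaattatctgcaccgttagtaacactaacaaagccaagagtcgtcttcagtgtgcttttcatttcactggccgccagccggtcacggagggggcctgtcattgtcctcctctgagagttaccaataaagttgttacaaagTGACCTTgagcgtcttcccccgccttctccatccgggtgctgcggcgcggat

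In these windows Cox6b1 held an ETS match and a TGGGAA match, Atp5g3 held an AAGGTCA match on the opposite strand, and Cox6b2 and Atp5g1 held none of the 5 motifs. Among all 82 member windows TGCGCA was found in 18 (22.0%), against 6.43% of all 32851 windows in the table. CCGGAAG was found in 16 (19.5%, against 6.91%), AAGGTCA in 5 (6.10%, against 4.08%), AAGATGG in 1 (1.22%, against 4.49%) and TGGGAA in 15 (18.3%, against 21.6%). By call, TGCGCA stood in 6 of 28 windows of genes that rose and in 12 of 50 windows of genes not called, CCGGAAG in 3 of 28 and 13 of 50, and TGGGAA in 5 of 28 and 10 of 50. None of the 5 motifs stood in the 4 windows of genes that fell. A match of letters is a description of the window and not a measured site.

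The 12 assembly factors, which build the complexes without staying in them, included 2 called genes, both higher on the TMM scale. With library totals that include the Ikzf1 reads 1 was higher and 5 were lower. Genes called on the TMM scale and genes without overlap each made up 16.7% of the 12, against 59.1% and 53.1% of all tested genes. Sdhaf4, which helps the flavoprotein of succinate dehydrogenase into its complex (ENSMUSG00000026154, chromosome 1, 23995939 to 24005656), stood at 4.79, 5.93, 5.44 and 5.75 CPM in the controls against 9.94, 7.70, 8.52 and 7.09 CPM in the Ikzf1 libraries. Here too the groups were apart, and the log2 fold change was 0.60 ± 0.13 (SE, edgeR adjusted p 0.000157). Ndufaf7, a methyltransferase that acts on a complex I core subunit, went from 17.2 ± 0.337 to 21.5 ± 0.640 CPM (SD, n = 4), a log2 fold change of 0.32 ± 0.07 (SE, edgeR adjusted p 0.000287).

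The mitochondrial genome was compared next. Its 13 protein-coding genes are cut from long transcripts of both strands, and all but mt-Nd6 are read from the same strand. Summed over the 13 genes they stood at 27418, 26150, 24709 and 22870 CPM in the controls against 26982, 24265, 23690 and 25335 CPM in the Ikzf1 libraries, and the groups overlapped. The 94 nuclear members summed to 7073, 6803, 6640 and 6819 CPM in the controls and to 7118, 7150, 7084 and 6921 CPM in the Ikzf1 libraries, with control replicate 1 above 1 of the Ikzf1 libraries. The ratio of the mitochondrial to the nuclear sum, which no scaling of libraries changes, was 3.70 ± 0.240 in the controls and 3.55 ± 0.214 after Ikzf1 (SD, n = 4), a difference smaller than the spread. Ikzf1 replicate 1 had the highest mitochondrial sum of its group, and without it the log2 ratio of the mitochondrial sums was -0.05, against -0.01 with it. By complex, the mitochondrial median log2 fold change was 0.01 for the 7 NADH dehydrogenase genes, 0.08 for mt-Cytb, -0.09 for the 3 cytochrome c oxidase genes and -0.07 for the 2 ATP synthase genes, and apart from mt-Nd6 none was called. At the nuclear members of the same complexes the medians were 0.10, 0.05, 0.03 and 0.04. The difference between genomes was not tested within a complex.

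mt-Nd6, a membrane subunit of complex I (ENSMUSG00000064368, chromosome MT, 13552 to 14070, minus strand), was the only mitochondrial member called. It stood at 14.9, 10.03, 12.8 and 15.4 CPM in the controls against 22.4, 20.8, 17.7 and 22.1 CPM in the Ikzf1 libraries. The groups did not overlap, and the log2 fold change was 0.64 ± 0.11 (SE, edgeR adjusted p 6.90e-05). The gene had 230 to 626 reads per library and made up 0.0383 to 0.0674% of the summed mitochondrial CPM in the controls and 0.0747 to 0.0872% in the Ikzf1 libraries, a share that does not depend on library scaling. mt-Nd5 overlaps it on the other strand, by annotation only from 13552 to 13565. mt-Nd5 had 0.09 ± 0.05 (SE, edgeR adjusted p 0.135), and it was called without Ikzf1 replicate 2 (adjusted p 0.0443). Strand use in counting was not stated, so part of the mt-Nd6 reads may be those of its neighbour, and whether that part moved with the group was not tested. At the other end, mt-Nd1 had a log2 fold change of 0.01 ± 0.05 (SE, edgeR adjusted p 0.880), and mt-Co1, the catalytic core of cytochrome c oxidase with the most reads, had -0.03 ± 0.05 (SE). mt-Atp8 had the highest TPM, 38398 in the controls, over a mean effective length of 61.8 bases, which makes its TPM unsafe to compare. Its log2 fold change was 0.07 ± 0.06 (SE).

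**Figure D3:**
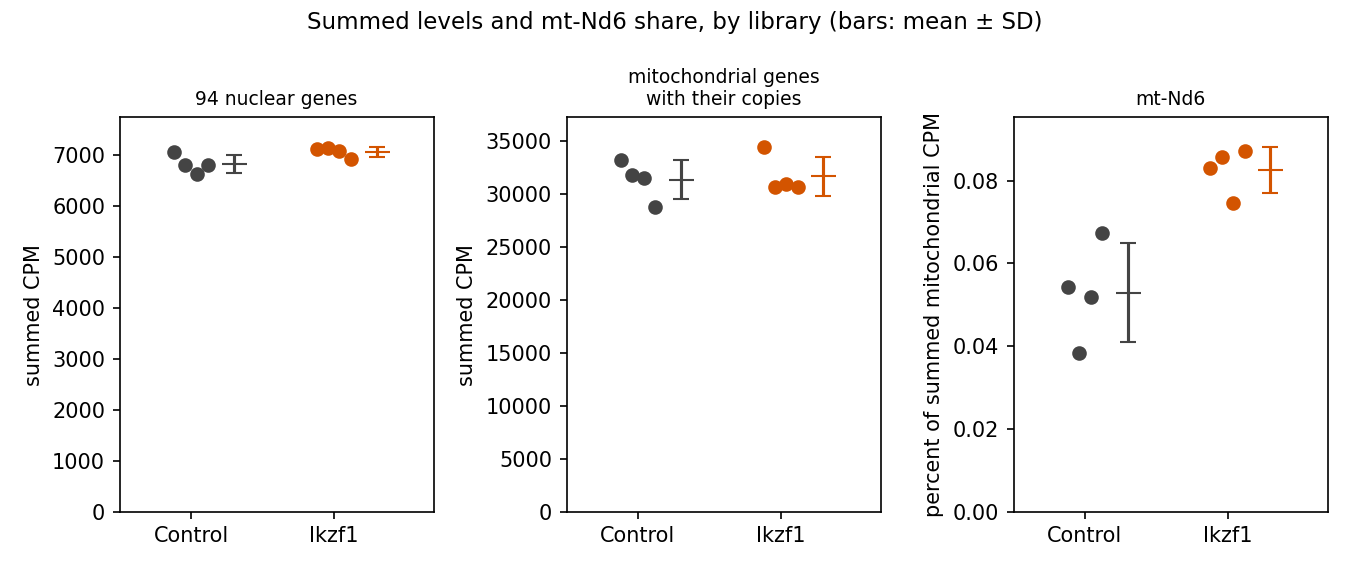
The left and middle panels plot the summed CPM of the 94 nuclear genes and of the 13 mitochondrial genes with their chromosome 1 copies, and the right panel plots mt-Nd6 as a percentage of the summed mitochondrial CPM, with 1 point per library and mean ± SD beside it. The groups overlap in the first 2 panels, while all Ikzf1 libraries lie at or above 0.0747% and all controls at or below 0.0674% for mt-Nd6.

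The genes mt-Co2, mt-Atp6, mt-Co3 and mt-Nd3 varied more between libraries of a group than the other mitochondrial genes of their strand, with standard errors of 0.32, 0.26, 0.17 and 0.11, against 0.05 to 0.06 for those others. Each has a near full-length copy on chromosome 1 (24612775 to 24615565, GRCm38, minus strand), in the same order and spacing as on chromosome MT, and the deposited counts hold reads for both gene and copy. mt-Co1 has a part-length copy there, Gm29216, which also held reads and is included in the sums with copies. The gene mt-Co1 held 91.3 to 92.6% of that pair. The full-length copy of mt-Nd4l, Gm10222, had a mean count of 0 in the authors' deposited table. The part of these copies in the variation was not tested. mt-Atp6 stood at 2366, 2371, 1621 and 1895 CPM in the controls against 1796, 1856, 1118 and 2429 CPM in the Ikzf1 libraries. Its copy Gm10925 stood at 1290, 1189, 1814 and 1297 CPM and at 2078, 1552, 2266 and 925 CPM, high where the gene was low. Summed, the pair gave 3461 ± 200.3 CPM in the controls and 3505 ± 247 CPM after Ikzf1 (SD, n = 4). The share of the pair given to the gene ran from 33.0 to 72.4% over the libraries.

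For mt-Co2 the copy Gm28661 took most of the reads, and the gene itself held 7.01 to 16.0% of the pair. mt-Co2 alone had a log2 fold change of -0.29, while the pair summed to 2876 ± 190 CPM in the controls and 2897 ± 196 CPM after Ikzf1 (SD, n = 4). mt-Co3 with Gm28437 summed to 3093 ± 184 and 3110 ± 164 CPM, and mt-Nd3 with Gm28438 to 444 ± 20.7 and 447 ± 49.7 CPM. In none of these pairs did the summed level differ by more than the spread between replicates. Over the 13 mitochondrial genes with their copies the sum was 31321 ± 1840 CPM in the controls and 31675 ± 1857 CPM after Ikzf1, and in the fit on summed pairs the mitochondrial median moved to 0.01 with mt-Nd6 again the 1 call.

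**Figure D4:**
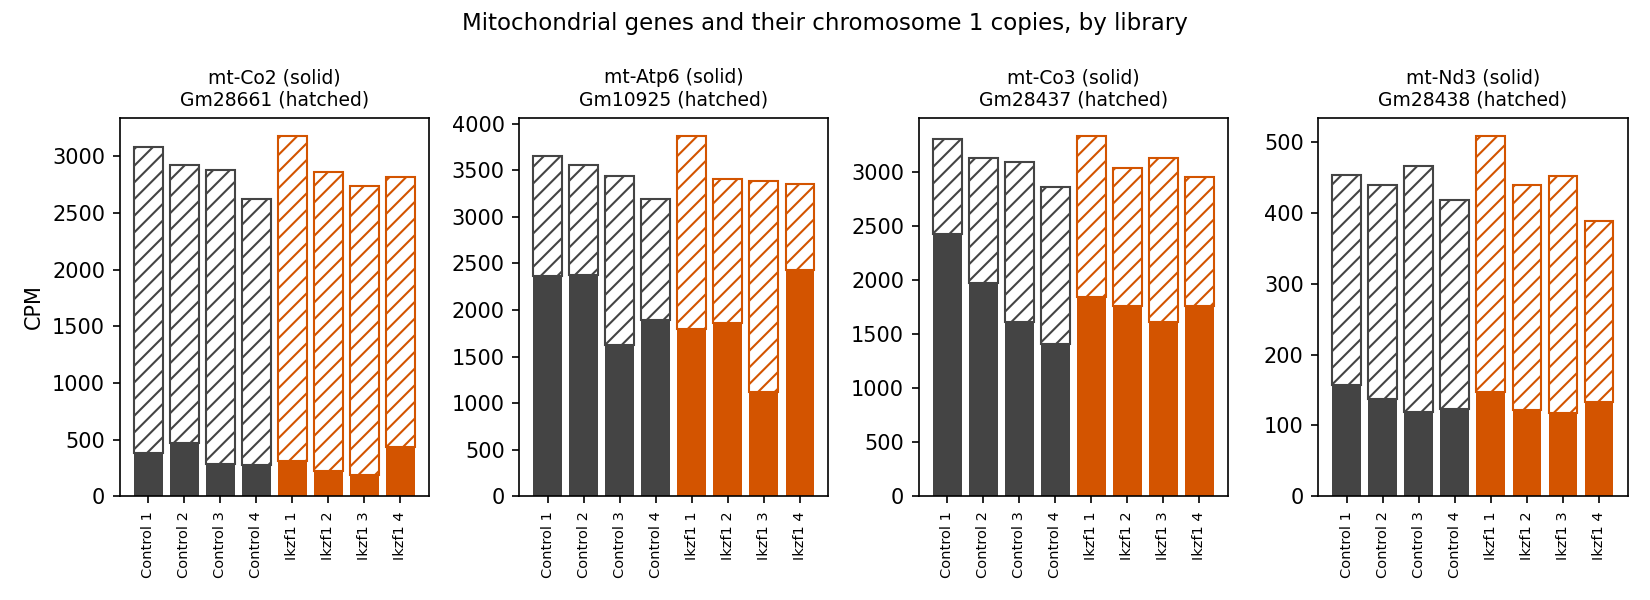
Stacked bars give the CPM of a mitochondrial gene (solid) and of its chromosome 1 copy (hatched) in each Control (grey) and Ikzf1 (orange) library, 1 panel per pair, on linear axes from 0. The solid part of mt-Atp6 runs from 1118 to 2429 CPM, while the full bar stays between 3192 and 3873 CPM.

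The genes around the pathway were taken from lists, with the same background of 59.1% called on the TMM scale. The counts in brackets have no such background here. The first list held Cyc1, electron carriers, ubiquinone synthesis genes, Dhodh and Gpd2. Of its 20 genes, 5 were higher and 3 lower on the TMM scale (3 and 11 with library totals including the Ikzf1 reads). Coq2, Coq7, Coq8b, Coq9 and Dhodh were called higher and Coq3, Coq4 and Pdss1 lower, while Etfa, Etfb, Etfdh and Gpd2 were not called. Cyc1, the cytochrome c1 of complex III, had 0.08 and Cycs, cytochrome c itself, 0.00, and neither passed, although Cyc1 was called without control replicate 1 (adjusted p 0.0348). Coq7 and Coq3, enzymes of ubiquinone synthesis, had 0.46 and -0.77. Of 36 further assembly factors 9 were higher and 11 lower (2 and 21), with Bcs1l, which inserts the Rieske protein, at 0.63 and Coa5 at -0.32. The mitochondrial ribosome had 23 of 78 genes higher and 22 lower (1 and 44), among them Mrpl15 at 0.32 and Mrps31 at -0.97. The tricarboxylic acid cycle and pyruvate dehydrogenase had 8 of 19 higher and 1 lower (2 and 10), with Ogdh at 0.43 and Pdhx at -0.29.

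Glycolysis had 1 of 23 genes higher and 14 lower on the TMM scale (0 and 19 with library totals that include the Ikzf1 reads), with a median of -0.32. Hk1, a hexokinase that binds mitochondria, had -0.93 ± 0.05 (SE), and Ldhb, the 1 called higher, had 0.16. The call of Ldhb was lost without control replicate 2, 3 or 4 or Ikzf1 replicate 2 or 4, with adjusted p from 0.0532 to 0.12. Protein import had 2 of 24 higher and 15 lower (0 and 19), with Timm17a of the inner membrane channel at -0.48 and Timm8b at 0.20. Genes of mitochondrial DNA and RNA handling had 3 of 33 higher and 12 lower (0 and 26). Twnk, the mitochondrial DNA helicase, had -0.67, Ssbp1, which binds single-stranded mitochondrial DNA, had 0.24, Polrmt, the RNA polymerase of mitochondria, had 0.21 and Tfam, which packs the DNA, had 0.04 and did not pass. The call of Polrmt was lost without control replicate 2 or Ikzf1 replicate 3 or 4, with adjusted p of 0.0725, 0.0505 and 0.0757. The stress response list had 6 of 14 higher and 4 lower (2 and 9) and a median of 0.01, with Trib3 at 1.25 and Atf5 at -0.88.

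The nuclear regulators of mitochondrial genes had 11 of 20 genes higher and 5 lower (6 and 8 with library totals that include the Ikzf1 reads). Ppargc1a, a coactivator known to raise mitochondrial gene expression, stood at 6.29, 7.24, 7.76 and 7.27 CPM in the controls against 21.7, 21.8, 21.3 and 22.3 CPM in the Ikzf1 libraries, a log2 fold change of 1.605 ± 0.09 (SE, edgeR adjusted p 2.60e-15). Myc, a driver of growth and of mitochondrial biogenesis, went from 70.9, 76.3, 69.3 and 74.6 CPM down to 18.8, 19.8, 22.1 and 16.6 CPM, a log2 fold change of -1.91 ± 0.07 (SE, edgeR adjusted p 7.06e-19). Neither gene showed an overlap between groups. Nrf1, an activator of respiratory chain genes, had 0.21, Esrra, which acts with Ppargc1a, had 0.34, and Gabpa, the ETS subunit of GABP, had -0.14, a call lost without Ikzf1 replicate 2 (adjusted p 0.0637). The nuclear members moved by a median of 0.06 in the same libraries.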

How the data were processed

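The members and the gene lists were chosen with earlier results of these data known. The deposited files held estimated counts and TPM of transcripts from Salmon, per the labels and file headers, with version, index and strand setting not given in the sources used here. Per the file headers, the deposited comparison by the authors held a mean signal (normalised count) per gene, log2 fold changes, a Wald score and p-values from DESeq2. Its positions are on GRCm38 (mm10). Deposited transcript lengths served for the join and the length offset.

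Transcripts were joined to genes by matching summed counts to the authors' mean per gene within 5e-09 over runs of at most 60 neighbouring transcripts. Among 16815 genes with means from 5 upward, 16771 were joined (99.7%), and with slightly moved means 70 (0.416%) found a run. Counts were rounded, filtered with filterByExpr, scaled by TMM and tested in edgeR 4.0.16 (quasi-likelihood, robust, two-sided, R 4.3.3) with no covariate and Benjamini-Hochberg adjustment over 15637 genes at 0.05. A standard error is the absolute log2 fold change over the square root of F. The script was tested on simulated data. No source names separate cultures or animals, so p-values measure the spread between these samples. Alternatives were other scalings, no filter, a length offset, protein-coding genes alone, DESeq2 1.42.0, a replicate block, each library left out, an adjusted p of 0.01 and, chosen after seeing the data, mitochondrial genes summed with their copies and Ikzf1 left out of the table.

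Genes given in full were, per complex, the highest in TPM and the smallest p in each direction, the 10 called members with the largest change, the paralog sets and, for mitochondrial genes, the smallest and largest p and the highest TPM; list genes were the smallest p in each direction and a fixed set of carriers and regulators, and members named only as calls were chosen after their values were seen. Glycolysis counts 2 genes named Aldoa. Lists of microglia, amacrine and horizontal, red blood cell, pigment epithelium and astrocyte markers were also made, with summed control levels of 2.61 to 3.53, 306 to 361, 0 and 5.54 to 6.86 CPM and summed Ikzf1 levels of 1.43 to 3.11, 288 to 317, 0 and 3.51 to 4.51 CPM, with Alas2 and Rpe65 at 0. The CUT&RUN peak lists were not used here, since their build (mm9) differs from that of the gene positions.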

Additional observations from a re-analysis of the deposited data

Results flagged for a closer look

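Of 166 groups of 4 libraries examined, 11 held 1 library whose gap to the nearest other, as a share of the group's range, exceeded Dixon's critical value, and chance alone gives about 1 in 20. Ikzf1 replicate 1 was the outlying library in most. It was the highest Ikzf1 library for mt-Nd1 (2479 CPM, the others 2211 to 2244), for the mitochondrial genes summed with their copies (34456 CPM, the others 30664 to 30898), for the 7 mitochondrial NADH dehydrogenase genes summed (10828 CPM, the others 9454 to 9590), for mt-Atp6 with its copy (3873 CPM, the others 3354 to 3409) and for Sdha (151 CPM, the others 145). It was the lowest Ikzf1 library for Cox4i1 (142 CPM, the others 156 to 158) and for Uqcrh (50.7 CPM, the others 56.8 to 57.9). Among the controls, replicate 4 was lowest for mt-Nd5 (1652 CPM, the others 1827 to 1857) and for the ratio of mitochondrial genes with copies to nuclear genes (4.22, the others 4.68 to 4.74). Control replicate 3 was lowest for Atp5b (958 CPM, the others 1042 to 1057) and highest for Gm28438, the copy of mt-Nd3 (347 CPM, the others 294 to 302). Causes of these gaps were not tested.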

How the results depend on the processing

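With library totals that include the Ikzf1 reads, nuclear calls were 3 higher and 50 lower, mitochondrial calls 1 higher and 7 lower, and the median log2 fold changes -0.15 (nuclear) and -0.24 (mitochondrial), beside -0.21 for all tested genes. The sums as a percentage of all reads gave log2 ratios of -0.16 (nuclear) and -0.22 (mitochondrial), against 0.05 and -0.01 in CPM. Ikzf1 itself took 15.9 to 17.2% of the reads of each Ikzf1 library, and the part of these reads in the shift was not tested. Of the 72 named genes, these 24 turned sign there, leaving aside genes called in neither fit: Atp5g3 -0.0403, Atp5j -0.0428, Atp5k -0.0638, Cox4i1 -0.19, Cox6a1 -0.18, Cox6c -0.0789, Cox7a2 -0.15, Ndufa4 -0.11, Ndufa9 -0.000983, Ndufv2 -0.0298, Sdha -0.0679, Sdhc -0.16, Sdhd -0.0565, Uqcrc1 -0.10, Uqcrc2 -0.0654, Uqcrfs1 -0.0695, mt-Atp8 -0.15, mt-Cytb -0.13, mt-Nd1 -0.20, Cyc1 -0.13, Ldhb -0.0541, Polrmt -0.00504, Tfam -0.18, Timm8b -0.00765. Members outside the named genes are not listed, and their signs may have turned as well. With library totals without the Ikzf1 reads, nuclear calls were 44 higher and 3 lower, mitochondrial calls 3 higher, the nuclear median was 0.12, and the nuclear sum had log2 ratios of 0.10 as a percentage of reads and 0.11 in TPM. The length offset gave 18 nuclear genes called higher, and an adjusted p of 0.01 gave 17. The share of all genes called is given for the main fit alone, so the counts under other fits in this section have no background. Of the 72 named genes, Atp5k, Cox6c, Uqcrc2, Uqcrfs1, Ldhb, Pdhx and Polrmt lost their calls under the length offset (adjusted p 0.0504 to 0.123). Further members that lost calls under it are not listed. The cause of the change under the length offset was not tested. Leaving out 1 library gave 20 to 31 nuclear genes higher and 4 to 7 lower, 1 to 2 mitochondrial genes higher (mt-Nd5 was added without Ikzf1 replicate 2) and 0 lower. The medians then ran from 0.05 to 0.08 (nuclear) and from -0.06 to 0.04 (mitochondrial), and the log2 ratios of the sums from 0.04 to 0.07 and from -0.06 to 0.03. Correlations between same-numbered samples ran from -0.07 to -0.01, and those over all combinations of the groups from -0.07 to 0.06. With 4 samples per group they cannot settle whether the samples were paired. A replicate block gave 26 nuclear genes higher and 5 lower. DESeq2 on the same counts, without transcript lengths, gave 29 and 5. Uncalled genes turned sign without being called in 34 of 1430 further fits of named genes. The fewest reads of a member in any library were 10, for Cox6a2.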
